A study of Homo sapiens with 16 samples.

Results

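Melanocytes and Schwann cells, the glia that wrap peripheral axons, share an origin in the neural crest, and 6 glial genes of that common lineage, PMP22, EMP1, MBP, CNP, S100B and GAP43, were followed through 2 BRAFi-resistant melanoma cell lines with and without corin, an inhibitor of the CoREST repressor complex. They were picked by symbol as glial genes of the melanocyte and Schwann lineage with their levels in the 8 libraries below already known, and they are 6 of the 34228 genes in the count table. Their own values are therefore given as a description, and where they are counted among the genes called by a fit over all genes, nothing is read from the count. Other genes of the lineage are given with the result of that fit, but were listed with earlier results of these data known too. RNA-Seq was done on 451Lu-R cells, which the study describes as MITF-high and AXL-low, and on 1205Lu-R cells, described as MITF-low and AXL-high. The titles of the libraries with counts read 451Lu and 1205Lu, and the study's methods name the BRAFi-resistant lines for its RNA-Seq. Per the study's methods, BRAFi-resistant lines were selected in rising doses of the BRAF inhibitor PLX4032 (vemurafenib) and kept in 5 μM of it, and whether it stayed in the medium of these libraries is not given in the sources used here. The 4 groups with counts are 451Lu-R with DMSO, 451Lu-R with 2.5 μM corin, 1205Lu-R with DMSO and 1205Lu-R with 2.5 μM corin, each for 24 h and each with 2 libraries of poly(A) RNA. Corin joins inhibitors of the histone deacetylases and of the demethylase LSD1 in one molecule, and so acts on both kinds of enzyme in that complex. Each phenotype is represented by 1 cell line, so a difference between the lines is a difference between those cultures.

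In a myelinating Schwann cell the plasma membrane is wound into a compact sheath, which needs large amounts of a few membrane and membrane-coating proteins. PMP22 is a tetraspan glycoprotein of compact peripheral myelin, whose gene dosage is altered in inherited neuropathies, and EMP1 is a relative of it found widely outside nerve. MBP holds the cytoplasmic faces of the sheath together, and CNP, a cyclic nucleotide phosphodiesterase, keeps the cytoplasmic channels of non-compact myelin open. S100B is a calcium-binding protein of Schwann cells and melanocytes in common use as a marker of both, and GAP43 is a membrane-attached phosphoprotein of growth cones that Schwann cell precursors and Schwann cells of injured nerve also make. The transcription factor SOX10 acts in both the melanocyte and the Schwann lineage.

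Sequence before the annotated start is shown for EMP1, which differed most with corin in 451Lu-R of the 5 that passed the filter on low counts there, for GAP43, which was higher with corin in both lines, and for the pair of myelin genes that were lower with corin in both lines, PMP22 and CNP. The stretches come from RefSeq promoter windows on GRCh38.p14 and stop at the first base that GENCODE 44 annotates as exon of the same gene. Capitals mark letters searched on both strands in windows of 300 bases, 250 before and 50 after each start. The strings were ACAAAG and, differing from it by a letter, ACAATG (both of the SOX type), TGANTCA of the AP-1 type, and of the E-box type CACCTG, its close relative CACGTG and a further relative, CATGTG. No string contains another, and a stretch without capitals held none of them.
EMP1, chr12:13196476-13196722, plus strand: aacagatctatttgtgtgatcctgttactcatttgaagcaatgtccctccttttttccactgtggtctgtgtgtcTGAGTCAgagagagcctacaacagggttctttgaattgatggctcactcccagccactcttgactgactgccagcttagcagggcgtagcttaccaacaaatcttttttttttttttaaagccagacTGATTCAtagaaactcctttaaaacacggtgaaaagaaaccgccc
PMP22, chr17:15265327-15265576, minus strand: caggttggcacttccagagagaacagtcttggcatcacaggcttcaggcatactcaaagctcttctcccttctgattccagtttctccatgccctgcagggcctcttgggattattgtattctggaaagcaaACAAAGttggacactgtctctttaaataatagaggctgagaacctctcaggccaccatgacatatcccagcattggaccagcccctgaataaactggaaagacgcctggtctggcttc
CNP, chr17:41966545-41966762, plus strand: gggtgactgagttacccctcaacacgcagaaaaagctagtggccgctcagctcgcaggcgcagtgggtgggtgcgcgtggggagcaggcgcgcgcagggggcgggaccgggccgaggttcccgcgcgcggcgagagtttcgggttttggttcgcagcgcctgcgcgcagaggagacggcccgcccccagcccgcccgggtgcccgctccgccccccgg
GAP43, chr3:115623260-115623509, plus strand: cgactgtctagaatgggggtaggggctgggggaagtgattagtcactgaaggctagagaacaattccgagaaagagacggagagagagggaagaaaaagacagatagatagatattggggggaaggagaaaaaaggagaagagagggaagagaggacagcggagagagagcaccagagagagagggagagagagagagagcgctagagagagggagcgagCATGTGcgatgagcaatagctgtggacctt

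The EMP1 stretch held TGANTCA at 175 and 48 bases before the start, and 7.71% of all 35116 windows held it at least once. The PMP22 stretch, which lies inside the span of PMP22 itself and over an exon of the unnamed gene ENSG00000265445 on the other strand, held ACAAAG at 118 bases before its start, as did 16.1% of windows anywhere in the window. PMP22 also had windows with a GC content of 64.3% and 71.0%, and these held none of the 6 strings. The GAP43 stretch held CATGTG at 30 bases before the start, a string found in 11.1% of windows. The CNP stretch held none of the 6 strings. Its full window of 300 bases had a GC content of 74.7%. The windows of the other stretches shown had 44.3% (EMP1), 50.7% (PMP22) and 52.7% (GAP43), and the median over all windows was 58.7%. A second CNP window, starting inside the gene, held ACAATG at 217 and 173 bases before its start (10.8% of windows held it), and the same string stood at 228 and 192 bases in 1 MBP window, while the other MBP window held CACCTG at 112 bases (20.6% of windows). CACGTG, in 7.26% of windows, was in no window of these genes. RefSeq gave 9 windows for 5 of the genes and none for S100B. The counts are summed by gene, so which start was in use cannot be told, and a match is a description of letters only.

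Totals ran from 9516687 to 11797788 estimated counts a library, so that a floor of 3 counts is worth 0.277 to 0.293 CPM over the groups (CPM being counts scaled to the library's total), and intervals and floors below cover counting error only. The spread between replicates, as chi-square over its degrees of freedom, was 1.34 to 1.41 times that of counting alone, and the labels do not say whether replicates were separate cultures, so p-values measure only the spread between these libraries. Between the lines, summed markers of the labelled phenotypes followed the labels. The 8 melanocytic markers summed to 13377.0 to 13446.9 CPM in 451Lu-R with DMSO and 11446.8 to 11486.0 with corin, but to 7.63 to 8.92 CPM in 1205Lu-R with DMSO and 17.7 to 19.7 with corin, with SOX10 at 0 counts in all 1205Lu-R libraries. The 6 undifferentiated melanoma markers, AXL among them, summed to 65.1 to 66.7 CPM and 526.4 to 528.2 CPM in 451Lu-R and to 6130.1 to 6221.7 CPM and 15752.5 to 15898.0 CPM in 1205Lu-R, DMSO before corin in each pair. These sums do not give the direction of AXL, or of any other single marker, with corin. NGFR, also on the undifferentiated list, went from 1.06 to 351.4 CPM in 451Lu-R and from 5.86 to 202.5 CPM in 1205Lu-R (means of 2 libraries). Other marker lists also moved with corin, and their part in the results was not tested. In 451Lu-R and 1205Lu-R, respectively, with DMSO the 7 fibroblast markers summed to at most 54.2 and 338.6 CPM, the 6 epithelial markers to 29.0 and 114.9 CPM, the 4 immune markers in the table to 70.6 and 10.8 CPM and the 4 endothelial markers to 10.9 and 11.7 CPM. With corin the highest sums were 158.2 and 189.1 CPM (fibroblast), 76.7 and 185.9 CPM (epithelial), 94.6 and 15.3 CPM (immune) and 72.9 and 51.9 CPM (endothelial). In bulk RNA, fewer cells that make a transcript and less of it per cell cannot be told apart.

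The myelin tetraspan PMP22 (ENSG00000109099.15, chr17:15229773-15272292, minus strand, GRCh38) was at 556.4 and 565.5 CPM in 451Lu-R with DMSO and at 292.7 and 297.3 CPM with corin. In 1205Lu-R it was at 90.5 and 86.2 CPM with DMSO and at 63.9 and 65.5 CPM with corin. Corin libraries were below DMSO libraries in both lines, every 1205Lu-R library was below every 451Lu-R library, and no groups overlapped. On the log2 scale the fitted difference between corin and DMSO was -0.83 ± 0.0293 in 451Lu-R (n = 2 per group), 1.78-fold lower. In 1205Lu-R it was -0.52 ± 0.0501, 1.44-fold lower. Errors of fitted values, here and below, are SEs derived from the edgeR F statistic. Between the lines with DMSO, PMP22 was 5.89-fold lower in 1205Lu-R (log2 difference -2.56 ± 0.0333). These folds are scaled with TMM factors, so they differ slightly from ratios of CPM. PMP22 shares 582 exonic bases with an unnamed gene on the other strand that had at most 3 counts in any library.

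EMP1 (ENSG00000134531.10, chr12:13196723-13219941, plus strand), the relative of PMP22 whose upstream stretch held TGANTCA at 2 places, was at 1185.1 and 1157.7 CPM in 451Lu-R with DMSO and at 190.3 and 185.7 CPM with corin. The corresponding levels in 1205Lu-R were 756.6 and 759.9 CPM with DMSO and 440.1 and 446.5 CPM with corin. Corin libraries were again lower in both lines, and with corin the order of the lines was turned, 1205Lu-R being above 451Lu-R. The fitted log2 difference was -2.54 ± 0.0304 in 451Lu-R, 5.81-fold lower, and -0.85 ± 0.0244 in 1205Lu-R, 1.80-fold lower. EMP1 was the only one of the 6 more than 4-fold lower in either line. With DMSO it was 1.44-fold lower in 1205Lu-R than in 451Lu-R (log2 difference -0.52 ± 0.0208).

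CNP (ENSG00000173786.17, chr17:41966763-41977740, plus strand), the enzyme of non-compact myelin, was at 269.2 and 264.4 CPM in 451Lu-R with DMSO and at 98.1 and 96.7 CPM with corin. In 1205Lu-R it stood at 98.9 and 103.7 CPM with DMSO and at 54.3 and 49.7 CPM with corin. All 1205Lu-R libraries with corin were lowest, and the 451Lu-R corin libraries were just below the 1205Lu-R DMSO libraries. The log2 difference between corin and DMSO was -1.35 ± 0.0369 in 451Lu-R (2.56-fold lower) and -1.04 ± 0.0541 in 1205Lu-R (2.05-fold lower). Between the lines with DMSO it was -1.29 ± 0.0369, or 2.45-fold lower in 1205Lu-R.

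CNP shares 437 exonic bases with DNAJC7, a heat shock cochaperone on the other strand, and strand use in counting is not given in the sources used here, so reads in the overlap cannot be told apart. In 451Lu-R DNAJC7 was at 73.7 and 73.2 CPM with DMSO and 32.4 and 32.9 CPM with corin. In 1205Lu-R its levels were 82.6 and 80.9 CPM with DMSO and 44 and 48 CPM with corin. DNAJC7 fell with corin in 451Lu-R (log2 fold change -1.07 ± 0.0577, edgeR quasi-likelihood FDR 2.28e-11) and in 1205Lu-R (-0.90 ± 0.0563, FDR 4e-12). Unlike CNP, it was higher in 1205Lu-R than in 451Lu-R with DMSO (log2 difference 0.26 ± 0.0497, edgeR FDR 5.72e-05).

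MBP (ENSG00000197971.15, chr18:76978827-77133683, minus strand), the protein that compacts the sheath, was at 232.1 and 229.9 CPM in 451Lu-R with DMSO and at 241.3 and 245.4 CPM with corin. In 1205Lu-R it had 1 count in each DMSO library, and 2 and 7 counts with corin, or 0.0904, 0.0942, 0.21 and 0.63 CPM. MBP was thus well expressed in 451Lu-R and near the floor in 1205Lu-R, and of PMP22, CNP and MBP it alone was not lower with corin in 451Lu-R. The fitted log2 difference in 451Lu-R was 0.17 ± 0.0325, 1.13-fold higher, and 0.0747 when libraries were scaled by their totals alone. The 1205Lu-R counts were too low to pass the filter, and their ratio, corin to DMSO per total, was 4.73 with a 95% counting interval of 0.979 to 45. Between the lines with DMSO, the ratio of counts per total put 451Lu-R 2506.0-fold above 1205Lu-R (95% counting interval 693.3 to 20698.5). MBP overlaps the exons of unnamed genes with at most 3 counts in any library.

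Myelin is also made by oligodendrocytes, and MBP and CNP are abundant in those cells. The 7 oligodendrocyte markers in the table summed to 12.1 to 13.8 CPM in 451Lu-R with DMSO and 49.3 to 52.2 CPM with corin, and to 27.0 to 28.9 CPM and 80.5 to 85.6 CPM in 1205Lu-R. OLIG2 and NKX2-2 were at 0 counts in 451Lu-R with DMSO, and MOG in 1205Lu-R with DMSO. The part of these markers in the levels of MBP and CNP was not tested.

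S100B (ENSG00000160307.10, chr21:46598604-46605208, minus strand), the shared marker of Schwann cells and melanocytes, was at 414.6 and 416.2 CPM in 451Lu-R with DMSO and at 302.3 and 306.7 CPM with corin. In 1205Lu-R it had 2 and 11 counts with DMSO (0.181 and 1.04 CPM) and 71 and 72 counts with corin (7.46 and 6.48 CPM). Corin libraries were lower than DMSO libraries in 451Lu-R and higher in 1205Lu-R, and in neither line did they overlap. The fitted log2 difference was -0.35 ± 0.0295 in 451Lu-R, 1.27-fold lower, and 3.43 ± 0.359 in 1205Lu-R, 10.8-fold higher. The 1205Lu-R value leans on single DMSO libraries, being 2.64 without DMSO replicate 1 and 5.08 without DMSO replicate 2. The ratio of counts per total in 1205Lu-R was 11.6 (95% counting interval 6.55 to 22.2). Even with corin, 1205Lu-R stayed far below 451Lu-R, and with DMSO the ratio of counts per total put 451Lu-R 692.9-fold above 1205Lu-R (95% counting interval 405.0 to 1301.8).

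GAP43 (ENSG00000172020.12, chr3:115623510-115721490, plus strand), the growth cone protein, had 0 counts in both 451Lu-R libraries with DMSO and 7 and 6 counts with corin (0.593 and 0.600 CPM). In 1205Lu-R it had 11 and 6 counts with DMSO (0.994 and 0.565 CPM) and 84 and 85 counts with corin (8.83 and 7.65 CPM). Corin libraries were above DMSO libraries in both lines, and GAP43 was the only one of the 6 that was higher in 1205Lu-R than in 451Lu-R with DMSO. Against the floor of 3 counts per library it was at least 2.04-fold higher with corin in 451Lu-R and, with DMSO, at least 2.66-fold higher in 1205Lu-R than in 451Lu-R. In 1205Lu-R the fitted log2 difference was 3.29 ± 0.29, 9.80-fold higher, and the ratio of counts per total was 10.5 (95% counting interval 6.34 to 18.4).

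GAP43 is best known from neurons, and the 10 neuron markers also had a higher summed level with corin. In 451Lu-R they summed to 207.3 to 209.9 CPM with DMSO and 745.0 to 749.8 CPM with corin, and in 1205Lu-R to 439.2 to 442.2 CPM and 1201.6 to 1223.9 CPM. Of these markers 5 were at 0 counts in 451Lu-R with DMSO (SYT1, STMN2, ELAVL3, NEFM and NEFL) and 1 with corin (ELAVL3), and in 1205Lu-R 3 with DMSO (STMN2, ELAVL4 and NEFM) and 1 with corin (ELAVL4). Their part in the level of GAP43 was not tested.

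**Figure D1:**
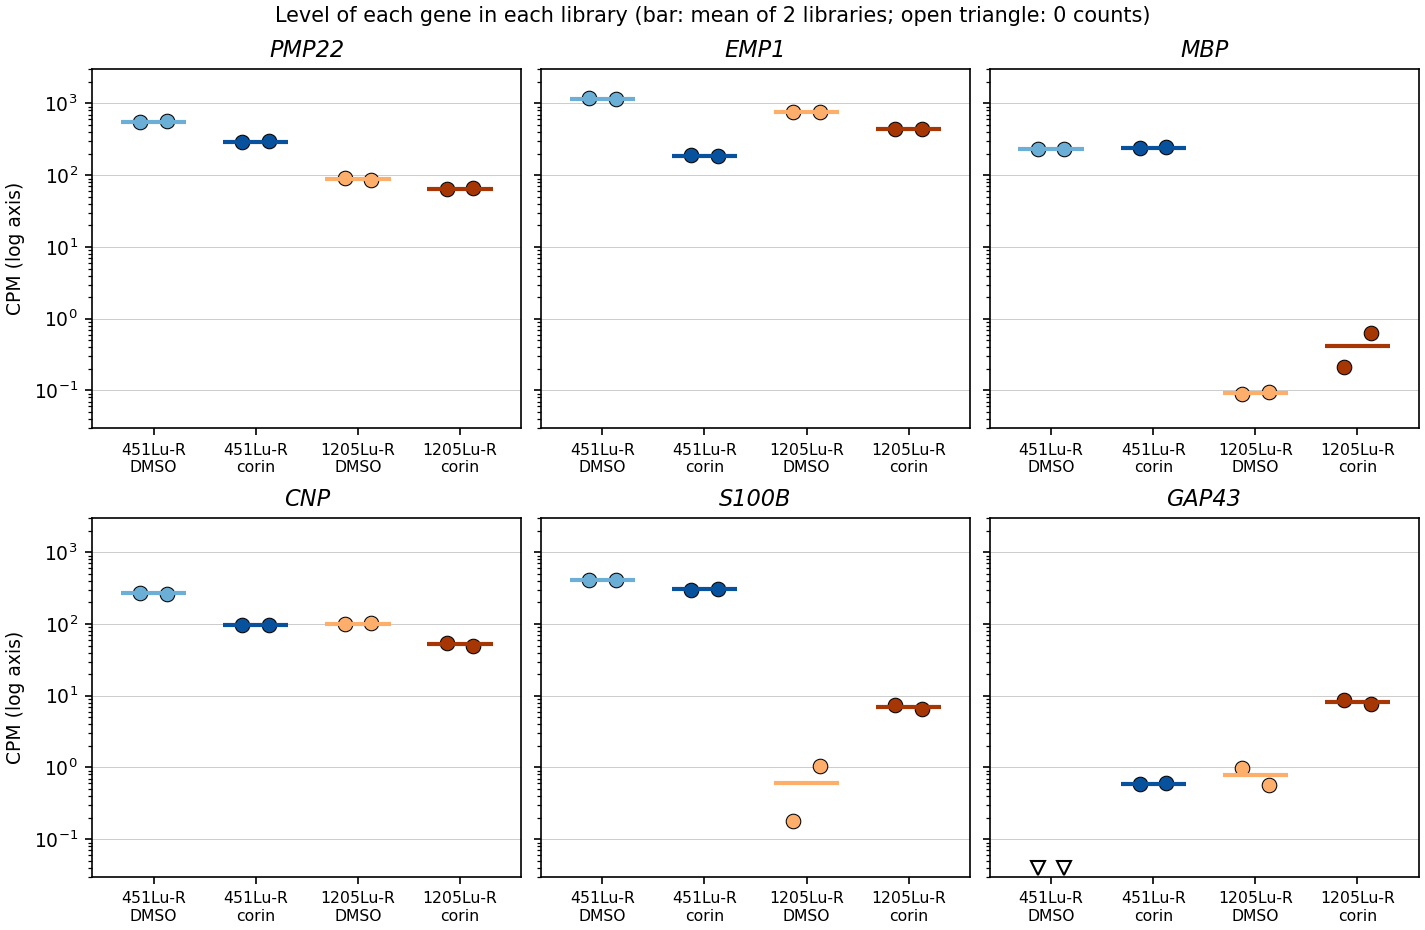
Level of each of the 6 genes in each library, in CPM on a log axis, with 1 panel per gene. Points are libraries, the bar is the mean of the 2 libraries of a group, and an open triangle marks 0 counts. PMP22, EMP1 and CNP sit lower with corin in both lines, MBP and S100B separate the lines with DMSO by 231.0 against 0.0923 CPM and 415.4 against 0.608 CPM in the mean, and GAP43 is at 0 in 451Lu-R with DMSO.

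Of the 6 genes, 5 passed the filter on low counts in 451Lu-R (all but GAP43), and past an edgeR FDR of 0.05 there was 1 with a higher level with corin (MBP) and 4 with a lower one. Over all 14530 genes tested in that line 41.3% rose and 38.6% fell by that rule. In 1205Lu-R 5 passed the filter (all but MBP), with 2 higher (S100B and GAP43) and 3 lower (PMP22, EMP1 and CNP), where 40.5% of 14563 genes rose and 37.8% fell. S100B and GAP43 passed it there only through their corin libraries, so that little but a higher level could be called. By the stricter rule of a 4-fold change with an FDR under 0.001, 1 gene was lower in 451Lu-R (EMP1, against 2.72% of all genes) and none higher (12.4% of all genes), and 2 were higher in 1205Lu-R (S100B and GAP43, against 11.4%) and none lower (1.43%). With DMSO, 5 passed the filter in the comparison of the lines (all but GAP43) and all 5 were lower in 1205Lu-R, where 41.0% of 14104 genes were higher and 41.5% lower. MBP and S100B passed it only through 451Lu-R. As the genes were chosen with these levels known, nothing is read from the counts. Summed over the 6 genes, the level went from 2657.4 and 2633.7 CPM with DMSO to 1125.3 and 1132.4 CPM with corin in 451Lu-R and from 947.2 and 951.5 CPM to 574.8 and 576.4 CPM in 1205Lu-R.

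The difference between the lines in the response to corin, taken as log2 fold change in 1205Lu-R less that in 451Lu-R in the fit of all 8 libraries, was 1.65 ± 0.0402 for EMP1, 0.27 ± 0.0596 for PMP22 and 0.28 ± 0.0682 for CNP. The 3 genes were thus less lowered in 1205Lu-R, and EMP1 by the widest margin. For S100B it was 3.74 ± 0.34, or 2.96 and 5.40 without DMSO replicate 1 or 2 of 1205Lu-R. For MBP (1.83 ± 0.876, and 0.83 without corin replicate 2 of 1205Lu-R) and GAP43 (-2.46 ± 1.65) the errors were wide, since a line was near 0 counts. All 6 passed the filter over 8 libraries, and 4 had a more positive response in 1205Lu-R past an FDR of 0.05 and none a more negative one, where 22.2% and 26.8% of 16062 genes did. Scaling by library totals alone moved the median of all genes by 0.21 in this comparison. It raised the share of more positive among all called genes from 45.4% to 64.2%. The smaller values for PMP22 and CNP should be set against that shift. Over the alternative scalings and fits PMP22 ranged from 0.266 to 0.479 and CNP from 0.276 to 0.489. Leaving out single libraries gave 0.215 to 0.307 and 0.238 to 0.363.

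**Figure D2:**
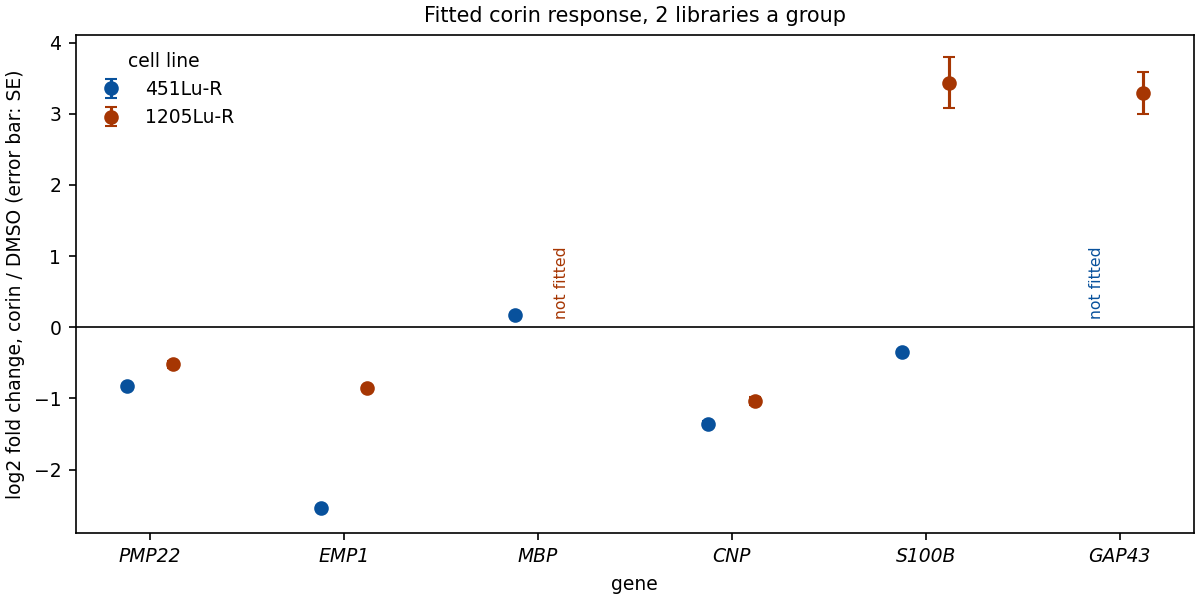
Fitted log2 fold change of corin against DMSO for the 6 genes in 451Lu-R and 1205Lu-R, with bars of 1 SE (derived from the edgeR F statistic, 2 libraries per group). EMP1, CNP and PMP22 lie below 0 in both lines and further below in 451Lu-R, S100B is at -0.35 in 451Lu-R but at 3.43 in 1205Lu-R, and "not fitted" marks genes that did not pass the filter on low counts.

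Levels between genes can be set side by side only per length, and CPM per kilobase of annotated exons was used (exonic lengths of 10.4 kb for PMP22, 18.7 for MBP, 7.41 for CNP, 1.81 for S100B, 1.90 for GAP43 and 7.83 for EMP1). In 451Lu-R with DMSO the order of levels per kilobase was S100B at 230.0 ± 0.631 (SD, n = 2), EMP1 at 149.5 ± 2.48, PMP22 at 53.9 ± 0.621, CNP at 36.0 ± 0.462, MBP at 12.3 ± 0.0837 and GAP43 at 0. With corin EMP1 dropped behind PMP22 in the order, S100B being at 168.6 ± 1.72 CPM per kilobase, PMP22 at 28.4 ± 0.317, EMP1 at 24 ± 0.42, CNP at 13.1 ± 0.132, MBP at 13 ± 0.152 and GAP43 at 0.314. CNP and MBP did not differ there beyond their spread.

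In 1205Lu-R with DMSO EMP1 led at 96.8 ± 0.304 CPM per kilobase, before CNP at 13.7 ± 0.458, PMP22 at 8.50 ± 0.286, GAP43 at 0.41 ± 0.16, S100B at 0.337 ± 0.335 and MBP at 0.00493. The order was the same with corin, with EMP1 at 56.6 ± 0.581, CNP at 7.01 ± 0.444, PMP22 at 6.22 ± 0.11, GAP43 at 4.33 ± 0.438, S100B at 3.86 ± 0.384 and MBP at 0.0224. GAP43 and S100B did not differ beyond their spread in either 1205Lu-R group. The lengths count all annotated exons of a gene, so a gene that uses few of them is placed too low.

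Genes with the most similar pattern were sought among 10000 genes with a mean of at least 10 CPM, by the root mean square (RMS) difference of log2(CPM + 0.5), centred on its mean over the 8 libraries. Nearest to PMP22 were THOC7 (0.0733), MICAL1 (0.0823) and FAM210A (0.0987), and nearest to CNP were TMEM94 (0.0526), DHRS4 (0.0856) and ELP5 (0.0901). EMP1 was followed by HMGN2 (0.139), EVA1A (0.151) and EXOSC5 (0.21). HMGN2, a nucleosome-binding protein, went from 876.5 and 897.7 CPM to 186.4 and 185.8 CPM with corin in 451Lu-R and from 668.2 and 667.3 CPM to 373.0 and 382.3 CPM in 1205Lu-R. Each of these 3 genes had a neighbour within 0.139, a closer match than any found for the other 3.

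The genes that separate the lines had looser neighbours. MBP was nearest to CDKN2A (0.294), TRIM63 (0.312) and BAAT (0.422), all between 116.5 and 220.4 CPM in 451Lu-R and at 0.188 CPM or less in 1205Lu-R. CDKN2A, the gene of the cell cycle inhibitor p16, was at 0 counts in all 4 1205Lu-R libraries. S100B was nearest to NAP1L3 (0.447), EDNRB (0.553) and CAPG (0.636), of which EDNRB encodes the endothelin receptor of the melanocyte lineage. EDNRB was at 416.9 and 410.7 CPM with DMSO and 134.7 and 128.3 CPM with corin in 451Lu-R, and at 0 counts with DMSO and 3.99 and 4.41 CPM with corin in 1205Lu-R. Named neighbours of GAP43 were CCN2 (0.269) and SERTAD1 (0.497). CCN2, a secreted matrix-associated growth factor, was at 26.1 and 28.4 CPM with DMSO and 95 and 93.2 CPM with corin in 451Lu-R, and at 83.0 and 87.1 CPM and 597.4 and 571.0 CPM in 1205Lu-R. At the low counts of GAP43 the added 0.5 CPM narrows its range.

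**Figure D3:**
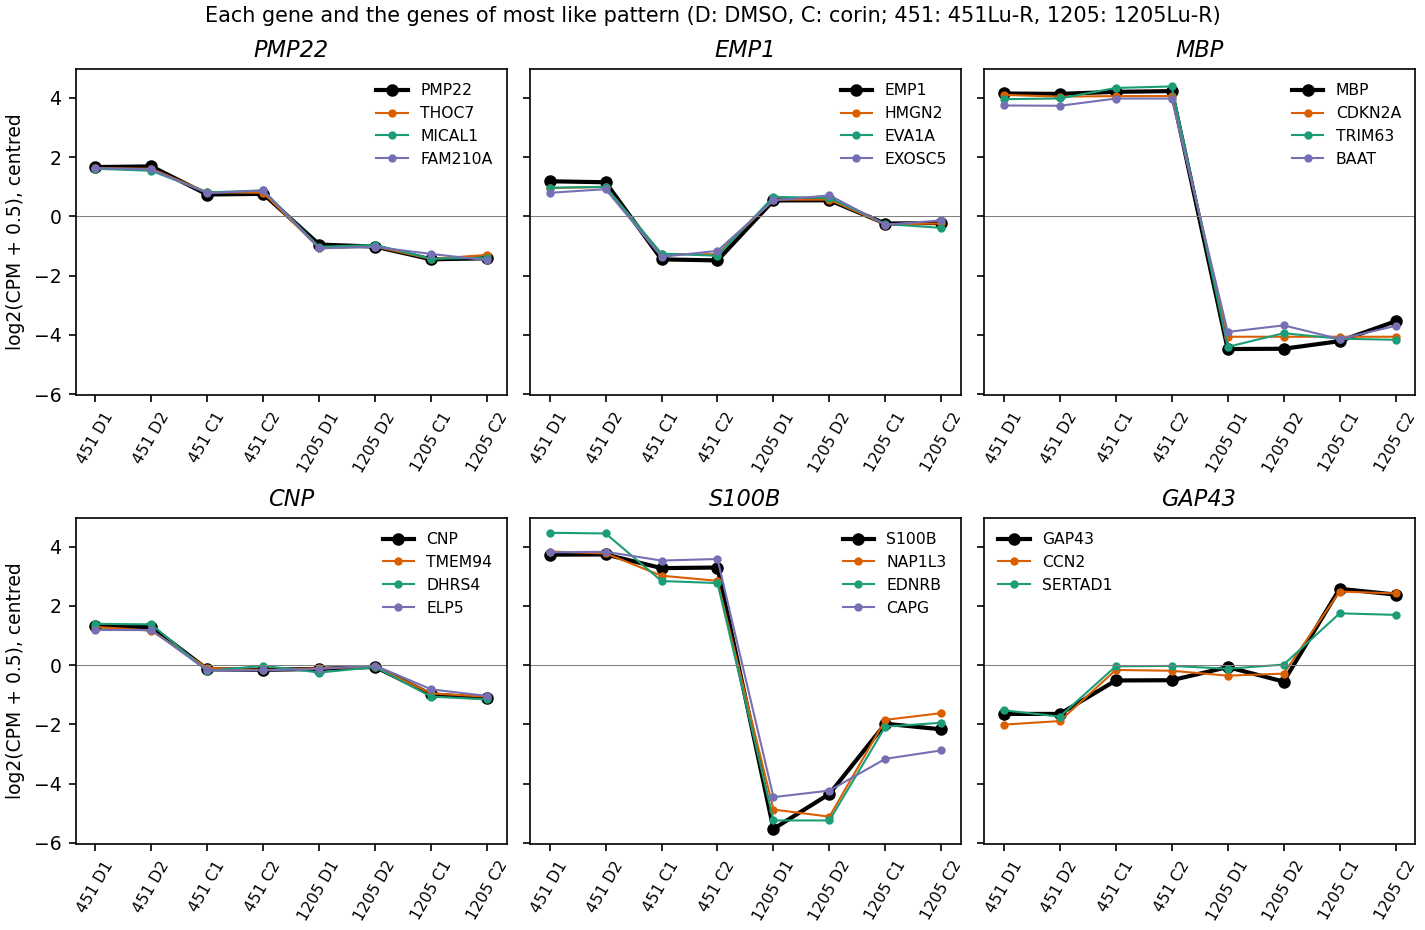
Centred log2(CPM + 0.5) of each of the 6 genes (heavy line) and of the nearest genes named in the text over the 8 libraries, with 1 panel per gene. The lines lie almost on each other for PMP22, CNP and EMP1 (RMS difference at most 0.21) and apart by up to 0.636 for S100B.

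The rest of the lineage was followed in 9 lists of 120 genes, none of them among the 6. The lists were drawn up with earlier results of these data known, so their shares beside those of all genes are a description and no independent evidence of a direction. In 451Lu-R 55 of 89 tested genes of the lists rose with corin (61.8%, against 41.3% of all genes) and 21 fell (23.6%, against 38.6%). In 1205Lu-R 53 of 87 rose (60.9%, against 40.5%) and 31 fell (35.6%, against 37.8%). The median log2 fold change over the listed genes was 0.55 in 451Lu-R and 0.37 in 1205Lu-R, beside 0.03 over all genes in each. Part of the calls upward was fixed by the filter, since a gene whose DMSO libraries do not both reach its minimum (0.957 CPM in 451Lu-R, 0.922 CPM in 1205Lu-R) passes only through its corin libraries, so that little but a rise could be called. This held for 17 of the 55 listed genes that rose in 451Lu-R and 12 of the 53 in 1205Lu-R, and for 1515 of 6008 and 1533 of 5896 over all genes. Among genes over the minimum in both groups, 38 of 69 listed genes rose in 451Lu-R (55.1%, against 36.6% of all such genes) and 20 fell (29.0%, against 42.9%), with a median of 0.22. In 1205Lu-R 41 of 73 rose (56.2%, against 35.1%) and 29 fell (39.7%, against 42.9%), with a median of 0.26. Of the genes named below, SOX2, NGFR, BDNF, UGT8, TMEM47, BASP1 and S100A4 in 451Lu-R and POU3F1, ID4, ERBB3, PTPRZ1 and TMEM47 in 1205Lu-R passed only through corin, and their rises there are given without an FDR. Of the listed genes 38 rose in both lines and 10 fell in both, while 10 rose in 451Lu-R but fell in 1205Lu-R, 6 did the reverse, and 20 were tested in neither. All calls below are by edgeR's quasi-likelihood test at an FDR under 0.05, and values in CPM are means of 2 libraries, DMSO before corin. With DMSO 47 of 87 listed genes (54.0%, against 41.0% of all genes) were higher in 1205Lu-R and 34 (39.1%, against 41.5%) lower, with a median of 0.62. Of the 47, 16 passed the filter only through 1205Lu-R, and of the 34, 12 only through 451Lu-R. Among the 59 over the minimum in both lines 31 were higher (52.5%, against 40.9% of all such genes) and 22 lower (37.3%, against 40.7%), with a median of 0.305. The response was more positive in 1205Lu-R for 22 of 99 (22.2%, the same share as over all genes). It was more negative for 40 (40.4%, against 26.8%), with a median of -0.27.

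Among 15 proteins of compact and non-compact myelin, 10 were tested in 451Lu-R, of which 5 rose, 3 fell and 2 did not pass, with a median log2 fold change of 0.28. In 1205Lu-R 6 of 8 rose and 2 fell, with a median of 0.51. NFASC, which links glia and axon at the node, rose from 2.85 to 36.4 CPM in 451Lu-R (3.78 ± 0.129, FDR 4.92e-14) and from 22.1 to 54 CPM in 1205Lu-R (1.22 ± 0.0759, FDR 3.43e-12). CADM4, a Schwann cell adhesion molecule, rose from 14.7 to 35.2 CPM (1.36 ± 0.0898, FDR 3.56e-10) and from 2.98 to 24.5 CPM (2.96 ± 0.168, FDR 7.47e-13).

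The list of transcription factors and cofactors of the Schwann lineage had 11 of 15 tested genes up and 3 down in 451Lu-R (median 0.53) and 10 of 15 up and 4 down in 1205Lu-R (median 0.59). Over the genes above the minimum in both groups the medians were 0.44 and 0.37. SOX10 itself fell in 451Lu-R from 758.0 to 233.9 CPM (-1.60 ± 0.0315, FDR 4.1e-17) and with DMSO was at least 2738.8-fold lower in 1205Lu-R, where it had no count in any library. EGR2, the factor that drives myelin genes, rose in 451Lu-R from 6.21 to 14.5 CPM (1.32 ± 0.143, FDR 2.31e-07) and in 1205Lu-R from 5.35 to 24 CPM (2.09 ± 0.13, FDR 3.34e-12). ZEB2 and TFAP2A fell in 451Lu-R but rose in 1205Lu-R, and NAB1, NAB2 and PAX3 did the reverse. POU3F1, ID4 and SOX2 had higher levels with corin in both lines. POU3F1 rose from 10.5 to 20.9 CPM in 451Lu-R (1.09 ± 0.125, FDR 4.75e-07) and from 0.373 to 6.02 CPM in 1205Lu-R (3.90 ± 0.388), the latter being 3.29 without DMSO replicate 1 and 4.87 without replicate 2. ID4, an inhibitor of helix-loop-helix factors, rose from 19.9 to 50.4 CPM (1.44 ± 0.0741, FDR 1.23e-11) and from 0.277 to 2.39 CPM (3.01 ± 0.489). SOX2, a factor of immature Schwann cells, rose in 1205Lu-R from 7.52 to 16.3 CPM (1.05 ± 0.132, FDR 3e-07). In 451Lu-R SOX2 rose from 2 counts over both DMSO libraries to 107 with corin, a ratio per total of 50.5 with a 95% counting interval of 13.6 to 422.1. The fitted value there was 5.59, or 8.72 without DMSO replicate 1 and 4.75 without replicate 2.

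Of 16 axonal signals, receptors and basal lamina genes, 7 of 14 tested rose and 6 fell in 451Lu-R (median 0.09), and 5 of 14 rose and 9 fell in 1205Lu-R (median -0.27). ERBB3, the Schwann cell receptor for neuregulin, fell in 451Lu-R from 251.5 to 24.5 CPM (-3.26 ± 0.0505, FDR 1.81e-18) and rose in 1205Lu-R from 0.23 to 5.88 CPM (4.54 ± 0.401). ADGRG6, an adhesion G protein-coupled receptor needed for myelination, likewise fell from 111.5 to 54.3 CPM (-0.94 ± 0.0472, FDR 8.62e-12) and rose from 2.62 to 31.7 CPM (3.52 ± 0.143, FDR 1.99e-15). ERBB3 had 3 and 2 counts with DMSO in 1205Lu-R. ADAM22, a receptor for LGI proteins, rose in both, from 11.7 to 46.6 CPM (2.09 ± 0.0885, FDR 8.85e-13) and from 3.39 to 42.8 CPM (3.56 ± 0.16, FDR 1.23e-14).

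Markers of Schwann cell precursors and of immature and non-myelinating Schwann cells had 6 of 11 tested genes up and 3 down in 451Lu-R (median 0.20) and 7 of 9 up and 2 down in 1205Lu-R (median 1.03). Of those over the minimum in both groups, 4 of 9 rose and 3 fell in 451Lu-R (median 0.02). In 1205Lu-R 5 of 7 such genes rose and 2 fell (median 0.86). NGFR, the low-affinity neurotrophin receptor of immature Schwann cells, neural crest and dedifferentiated melanoma, rose from 1.06 to 351.4 CPM in 451Lu-R (8.44 ± 0.089) and from 5.86 to 202.5 CPM in 1205Lu-R (5.03 ± 0.0724, FDR 4.11e-23). ATF3, a stress-induced factor of injured nerve, rose from 2.40 to 18.2 CPM (2.99 ± 0.188, FDR 1.76e-10) and from 3.04 to 16 CPM (2.32 ± 0.171, FDR 5.85e-11). PTPRZ1, a receptor phosphatase, fell in 451Lu-R from 47.8 to 36.2 CPM (-0.31 ± 0.071, FDR 0.00084). In 1205Lu-R PTPRZ1 went from 0 counts to 4.31 CPM, at least 15.6-fold higher, and with DMSO it was at least 172.5-fold lower there than in 451Lu-R.

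Repair Schwann cells, which form after nerve injury, secrete trophic factors and make GAP43. Of 13 genes listed for these cells, most encode secreted factors, but OLIG1 and RUNX2 encode transcription factors. In 451Lu-R 5 of 7 tested rose and none fell (median 2.95), and in 1205Lu-R 7 of 12 rose and 4 fell (median 1.03). OLIG1, also on the oligodendrocyte marker list, rose in both lines, and RUNX2 fell in 1205Lu-R. Of the genes that rose, 4 in each line passed the filter only through corin. Among those over the minimum in both groups 1 of 2 rose in 451Lu-R (median 0.64), and 3 of 7 rose and 3 fell in 1205Lu-R (median -0.14). The neurotrophin BDNF rose from 0.93 to 8.37 CPM in 451Lu-R (3.25 ± 0.28) and from 9.71 to 23.4 CPM in 1205Lu-R (1.20 ± 0.125, FDR 1.63e-08). UCN2, a peptide of the urocortin family, rose from 6.24 to 13.1 CPM (1.18 ± 0.152, FDR 1.89e-06) and from 7.16 to 53.1 CPM (2.82 ± 0.101, FDR 2.44e-16). The cytokine LIF fell in 1205Lu-R from 290.5 to 66.7 CPM (-2.19 ± 0.0392, FDR 1.72e-21) and was at 1.86 and 1.04 CPM in 451Lu-R (-0.77 ± 0.402, FDR 0.0902). With DMSO, 7 of 8 tested repair factors were higher in 1205Lu-R, as GAP43 was, with a median log2 difference of 6.29, or 5.12 with the gene at 0 counts set at its bound. Of these 7 genes 5 passed the filter only through 1205Lu-R, so that little but a higher level there could be called. This leaves 2 of the 3 genes over the minimum in both lines.

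Of 13 genes listed for myelin lipids, some make these lipids and others, such as GALC, ARSA and PSAP, serve their breakdown. In 451Lu-R 9 of 11 tested rose and 1 fell (median 0.83), while 4 of 9 rose and 5 fell in 1205Lu-R (median -0.32). ARSA and PSAP rose in both lines, and GALC, not tested in 451Lu-R, fell in 1205Lu-R. Of the 9 that rose in 451Lu-R, 4 passed the filter only through corin, and the median of the 7 genes above the minimum in both groups was 0.26. UGT8, which makes galactosylceramide, rose in 1205Lu-R from 9.87 to 54.8 CPM (2.40 ± 0.0887, FDR 4.11e-16) and in 451Lu-R from 5 to 72 counts over both libraries, a ratio per total of 13.6 (95% counting interval 5.56 to 43.1). CERS2, the synthase of very long chain ceramides, fell from 141.8 to 40.7 CPM (-1.70 ± 0.0514, FDR 1.04e-14) and from 219.1 to 76.8 CPM (-1.58 ± 0.0403, FDR 7.02e-19). SPTLC2, a subunit of serine palmitoyltransferase, rose in 451Lu-R from 74.6 to 153.6 CPM (1.14 ± 0.0457, FDR 4.29e-13). Its value in 1205Lu-R was 0.14 ± 0.0606 (44.3 to 51.5 CPM, FDR 0.0354), a call lost with DESeq2 (adjusted p 0.376) and without any 1 of the 4 libraries.

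The lists of relatives of PMP22 and EMP1, of GAP43 and of S100B each held genes that rose and genes that fell in each line. No such list was made for MBP or CNP. Of the 5 tetraspan relatives of PMP22 and EMP1, 451Lu-R had 3 of 4 tested up and 1 down, and 1205Lu-R had 2 up, 1 down and 1 not passing (medians 0.76 and 0.24). Over the 3 genes above the minimum in both groups the medians were 0.59 and -0.0012. EMP3 fell in both lines, as PMP22 and EMP1 were lower in both, from 117.7 to 35.8 CPM (-1.61 ± 0.0582, FDR 1.03e-13) and from 130.6 to 45.2 CPM (-1.60 ± 0.0492, FDR 1.73e-17). EMP2 rose in 451Lu-R from 19.9 to 35.6 CPM (0.94 ± 0.0852, FDR 2.52e-08) and was at 40.9 and 43.0 CPM in 1205Lu-R (-0.0012 ± 0.0643, FDR 0.99), a difference whose sign changed with the scaling. TMEM47, a junction protein of the same fold, had 0 counts in 451Lu-R with DMSO and 46.5 CPM with corin, at least 158.9-fold higher, and in 1205Lu-R went from 4 to 171 counts, a ratio of 44.9 (95% counting interval 17.2 to 166.8).

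Growth cone and membrane relatives of GAP43 had 5 of 9 tested up and 3 down in 451Lu-R (median 1.27) and 6 of 8 up and 2 down in 1205Lu-R (median 0.39). Of the 5 up in 451Lu-R, 3 passed the filter only through corin, and over the 6 genes above the minimum in both groups 2 rose and 3 fell, with a median of -0.03. In 1205Lu-R the median of the 7 such genes was 0.24. BASP1, a membrane protein with a build and role close to those of GAP43, rose in 451Lu-R from 5 to 4154 counts over both libraries, a ratio per total of 783.8 (95% counting interval 335.6 to 2415.3), and in 1205Lu-R from 64.7 to 405.9 CPM (2.58 ± 0.0373, FDR 4.66e-23). The fitted log2 value in 451Lu-R was 9.64, or 10.8 without DMSO replicate 1. GPRIN1, a G protein-regulated inducer of neurite outgrowth, rose in 451Lu-R from 64.0 to 146.3 CPM (1.29 ± 0.0466, FDR 1.04e-13) and in 1205Lu-R from 113.4 to 132.8 CPM (0.15 ± 0.0429, FDR 0.00263), the latter call being lost with DESeq2 (adjusted p 0.1), with no filter (FDR 0.0994) and without DMSO replicate 1 (FDR 0.0937). NRGN, which like GAP43 binds calmodulin, rose from 8.79 to 19.9 CPM (1.27 ± 0.128, FDR 9.64e-08) and from 62.8 to 78.1 CPM (0.24 ± 0.0543, FDR 0.000462).

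Of 17 S100 relatives of S100B in the table, 8 were tested in each line, with 4 up, 1 down and 3 not passing in 451Lu-R (median 0.92) and 6 up and 2 down in 1205Lu-R (median 0.43). Over the minimum in both groups, 3 of 6 rose and 1 fell in 451Lu-R (median 0.35), while in 1205Lu-R all 8 were over it. S100A6 rose from 175.7 to 404.8 CPM (1.30 ± 0.0319, FDR 6.37e-16) and from 650.3 to 1014.2 CPM (0.57 ± 0.0214, FDR 5.72e-16). S100A4, a protein tied to cell motility, rose from 0.528 to 3.05 CPM (2.57 ± 0.391) and from 13.4 to 33.7 CPM (1.26 ± 0.0954, FDR 9.61e-11). S100A16 had opposite signs, in the reverse sense to S100B, rising from 4.84 to 12.3 CPM in 451Lu-R (1.46 ± 0.17, FDR 5.46e-07) and falling from 311.2 to 84.2 CPM in 1205Lu-R (-1.96 ± 0.0373, FDR 5.14e-21). With DMSO 7 of 9 tested S100 relatives were higher in 1205Lu-R than in 451Lu-R (median log2 difference 1.99), 3 of them passing only through 1205Lu-R, where S100B was lower. The median of the 5 over the minimum in both lines was 1.52.

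**Figure D4:**
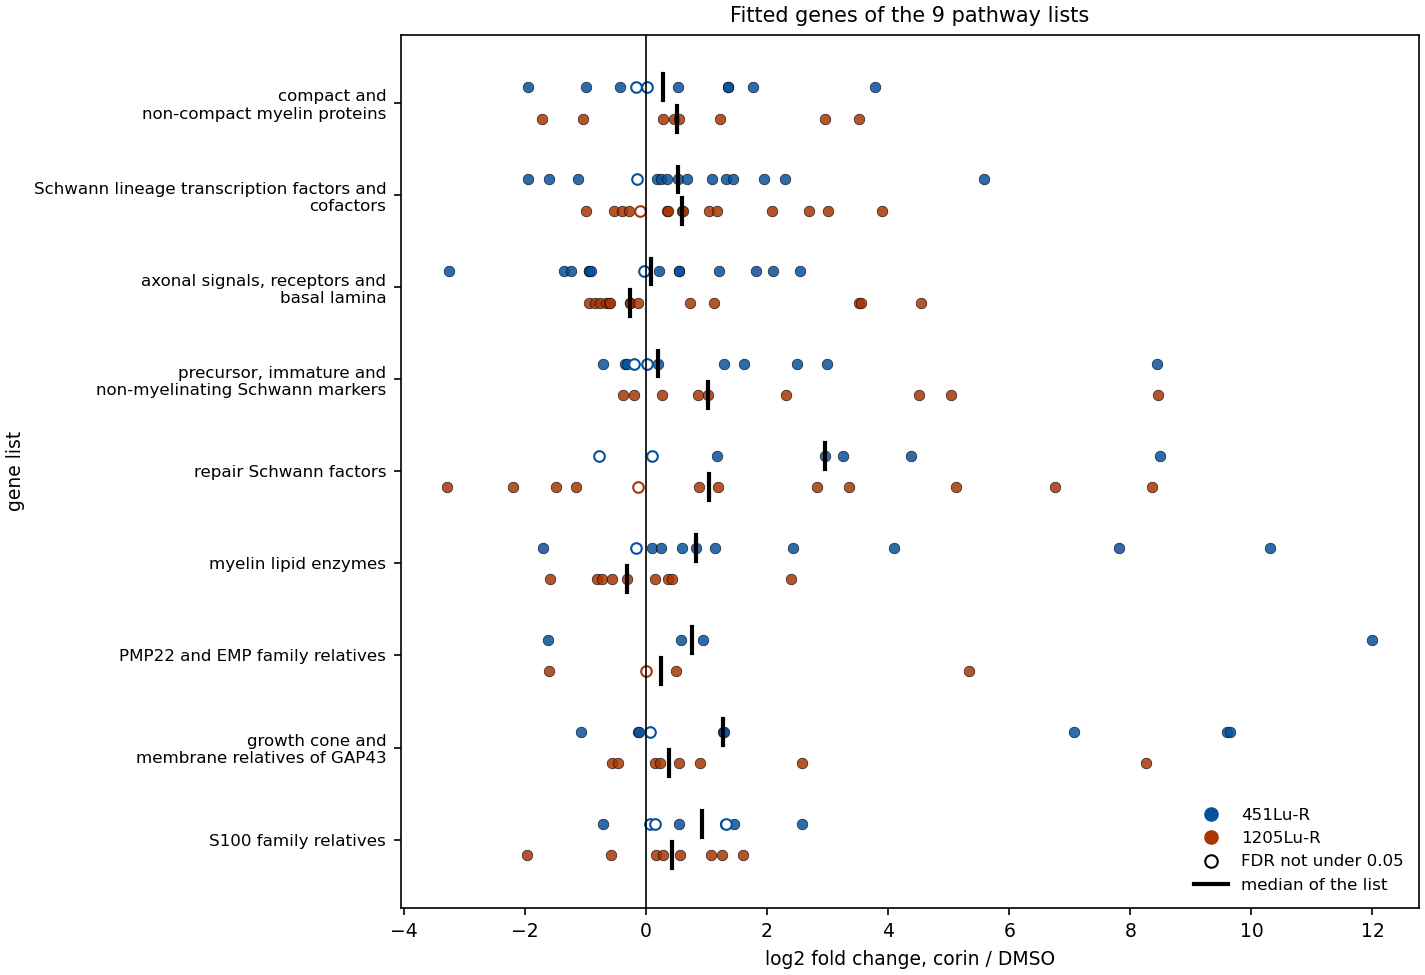
Log2 fold change of corin against DMSO for each fitted gene of the 9 lineage lists, 451Lu-R beside 1205Lu-R, with filled points for an edgeR FDR under 0.05, open points otherwise and a black bar at the list's median. The median of 2.95 for the repair factors in 451Lu-R rests on 7 genes, 4 of which passed the filter only through corin. The list of myelin lipid enzymes and related genes has medians of 0.83 (451Lu-R) and -0.32 (1205Lu-R).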

How the data were processed

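RNA-Seq of 451Lu-R and 1205Lu-R BRAFi-resistant melanoma cells was analysed. Trimmomatic, salmon on the GENCODE 32 transcripts, and DESeq2 were the authors' tools, in versions not given in the sources used here, and salmon's estimates were summed by gene. The authors deposited estimated counts (expected counts) for 8 libraries, 2 in each of 4 groups, without normalization. The other 8 libraries received PLX4032 alone or with corin and were not analysed here, since the tables used for them hold the authors' log2 fold changes, adjusted p-values and symbols.

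Of 34228 genes, 34052 were matched to a symbol of GENCODE 44, whose gene models on GRCh38 gave positions, overlaps and exonic lengths. Estimated counts were rounded and tested with edgeR 4.0.16 in R 4.3.3 (filterByExpr by group, TMM, glmQLFit, glmQLFTest, 2-sided, Benjamini-Hochberg adjustment over all genes tested) for corin against DMSO in each line, for the lines with DMSO and for the difference in response (interaction term, 8 libraries). TMM factors ran from 0.962 to 1.05. The SE of a fitted value was taken as its absolute size over the square root of the quasi-likelihood F. The dispersion behind it is moderated over all genes, so it is not the spread of 2 libraries alone. Fitted log2 values include the small count that edgeR adds, which matters near 0 counts. CPM are estimated counts scaled to the library's total, and 95% counting intervals are exact (Clopper-Pearson). An exact permutation test of 2 against 2 libraries cannot go below p = 0.333, so single values were not tested that way.

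The 6 genes, the 9 lineage lists and the marker lists were all picked with earlier results of these data known. Named from each list were at most 3 genes with the largest change in either line, at an FDR under 0.05, a mean of at least 5 CPM and no overlap of corin and DMSO libraries, besides SOX10, ERBB3, EGR2, up to 3 nearest genes for each of the 6 and a gene whose exons overlap. Some genes that this rule names are not reported here. The alternatives tried were RLE size factors or library size only in place of TMM, DESeq2 1.42.0, no filter or a minimum mean of 1 CPM, the replicate number as a block, 1 fit over the 8 libraries, leaving out each library, levels without length, a minimum of 50 CPM for the nearest genes and, chosen after seeing the data, list counts over genes that reach the filter's minimum in both groups compared. No batch is named in the labels.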

Additional observations from a re-analysis of the deposited data

Results flagged for a closer look

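Only genes of the lineage lists already named above are given here. Those whose response to corin differed between the lines by the edgeR interaction test (FDR under 0.05 over 16062 genes) are shown. Values are the difference in log2 fold change, 1205Lu-R minus 451Lu-R. They are part of a larger set among the 99 listed genes tested. Of the 99, 22 were more positive (22.2%, as over all genes) and 40 more negative (40.4%, against 26.8%). The response was more positive in 1205Lu-R for CADM4 (1.56), EGR2 (0.73), POU3F1 (2.77), ID4 (1.53), ERBB3 (7.76), ADAM22 (1.43), ADGRG6 (4.42), PTPRZ1 (8.75) and UCN2 (1.61). It was more negative in 1205Lu-R for NFASC (-2.60), SOX2 (-4.58), NGFR (-3.45), BDNF (-2.09), LIF (-1.47), UGT8 (-1.74), SPTLC2 (-1.03), TMEM47 (-6.68), EMP2 (-0.97), BASP1 (-7.11), GPRIN1 (-1.17), NRGN (-1.07), S100A4 (-1.35), S100A16 (-3.46) and S100A6 (-0.77). The values for PTPRZ1 and TMEM47 rest on groups at 0 counts and depend on the count that edgeR adds. SOX2, BASP1, UGT8, S100A4, BDNF and NGFR had 2 to 22 counts over both DMSO libraries of 451Lu-R. ERBB3, ID4 and POU3F1 had 5 to 8 over those of 1205Lu-R. In that line these genes and TMEM47 passed the filter only through corin, as PTPRZ1 did in 1205Lu-R, and LIF passed in 451Lu-R only through DMSO. A group so low partly sets the difference, so nothing is read from the calls of these genes. The call was lost without either DMSO replicate of 451Lu-R for UGT8 (FDR 0.0946 and 0.0622), without DMSO replicate 2 for S100A4 (FDR 0.0882), without corin replicate 2 for LIF (FDR 0.233), and for ID4 without either DMSO replicate (FDR 0.0914 and 0.0807) or corin replicate 2 (FDR 0.0795) of 1205Lu-R. SOX2 ranged from -7.72 without DMSO replicate 1 of 451Lu-R to -3.75 without replicate 2, BASP1 was -8.26 without DMSO replicate 1 of 451Lu-R, and POU3F1 was 2.17 without DMSO replicate 1 of 1205Lu-R and 3.74 without replicate 2.

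For S100B every corin library was below the DMSO libraries in 451Lu-R and above them in 1205Lu-R, a difference in response of 3.74 on the log2 scale. It passed the interaction fit over all genes, but nothing is read from that call, since S100B was chosen with these values known.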

How the results depend on the processing

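The log2 differences of the 6 genes kept their direction and their side of the FDR threshold in 248 of 249 recomputed values, the exception being the difference in response of MBP, which passed at 2.37 without corin replicate 1 of 1205Lu-R. The number of the 6 called higher with corin in 451Lu-R went from 1 to 2 with DESeq2, with no filter and with all 8 libraries in one fit, in each of which GAP43 was added, and the number called higher with corin in 1205Lu-R went from 2 to at most 3. The number called higher in 1205Lu-R with DMSO went from 0 to 1 under the same 3 settings and ranged from 0 to 1 when single libraries were left out, being 1 without DMSO replicate 1 or DMSO replicate 2 of 451Lu-R. Among the other named genes 1311 values were unchanged in sign and call, 17 lost and 6 gained a call, and 7 changed sign. The sign changed for EMP2 in 1205Lu-R (0.00321 with RLE size factors, 0.0737 with library size only, 0.0138 with a minimum mean of 1 CPM) and for the difference in response of EMP3 (0.187 with library size only, -0.0848 to 0.0221 leaving out libraries), and neither passed the test. Library size only moved the median of all genes by -0.0981 in 451Lu-R, 0.0748 in 1205Lu-R, -0.106 between the lines and 0.211 in the difference in response. DESeq2 gave -1.87 in place of -2.46 for the difference in response of GAP43. Same-numbered replicates did not deviate together (r of -0.0318 for the 451Lu-R groups, 0.00485 for those of 1205Lu-R), and a replicate block left PMP22 at -0.828 in 451Lu-R and S100B at 3.43 in 1205Lu-R and changed no call named here. Without length, 3 of the 6 genes held their place in the order of levels in each 451Lu-R group, and 6 and 4 in 1205Lu-R with DMSO and corin. With 50 CPM as the minimum mean, 10 of the 17 nearest genes named were retained. Depth limits MBP, S100B and GAP43 in 1205Lu-R and GAP43 in 451Lu-R. The causes of these shifts were not tested.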
